A study of Mus musculus with 8 samples.

Results

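The 10 genes described are the Toll-like receptors *Tlr1*, *Tlr2*, *Tlr3*, *Tlr4*, *Tlr6*, *Tlr7*, *Tlr8*, *Tlr9* and *Tlr13* and the co-receptor *Cd14*, chosen by their symbols among the 53819 genes of the deposited count table. All 10 were present and all 10 had enough counts to be tested, among 13722 tested genes. They were measured in bone marrow-derived macrophages (BMDM), cells grown from the marrow of female Balb/CJ mice aged 8 weeks for 5 days in the growth factor M-CSF at 25 ng/mL. The BMDM of each of 4 mice were then treated for 48 h with 2.5 µM bilirubin, the heme breakdown product, or with the DMSO vehicle, which gave 4 vehicle and 4 bilirubin cultures that are paired by mouse. The labels name no transgene or deletion, and such cultures hold macrophages grown with a single factor, apart from the other cells of a tissue. The comparison asks whether bilirubin changes the transcripts of the receptors with which macrophages recognize microbes and damaged cells.

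Toll-like receptors are membrane proteins that bind conserved microbial molecules and signal through the adaptors MyD88 and TRIF to NFκB and interferon regulatory factors. *Tlr1*, *Tlr2*, *Tlr4* and *Tlr6* act mainly at the cell surface on lipopeptides and lipopolysaccharide, with CD14 passing such lipids on to TLR4 and TLR2. *Tlr3*, *Tlr7*, *Tlr8*, *Tlr9* and *Tlr13* act in endosomes on nucleic acids, after the chaperone UNC93B1 has brought them there. The genes are grouped in this way below, as 5 surface genes (with *Cd14*) and 5 endosomal genes.

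The libraries held 37747315 to 47071714 counts on genes for vehicle and 34142781 to 41054034 for bilirubin, the lowest being the bilirubin culture of mouse 1. That culture stood apart from the other bilirubin cultures in several genes described here, and leaving out mouse 1 raised the number of genes called over the whole table from 1033 to 1910. Levels are given in CPM (counts relative to the library total, scaled by edgeR's TMM method), or in TPM (scaled also for transcript length) where genes are compared with each other. A gene was called when its adjusted p was under 0.05 in edgeR's quasi-likelihood test with the mouse in the model, and all log2 fold changes are those of bilirubin against vehicle. The 7 macrophage markers were present in every culture, *Csf1r* (the M-CSF receptor) at 1331 to 1844 CPM and *Adgre1* (F4/80) at 501.6 to 767.5 CPM. Of these 7, *Adgre1* (log2 fold change 0.42), *Lyz2* (0.35) and *Itgam* (0.26) were called higher and none lower. *Csf1r* (-0.02), *Cd68* (-0.16, without overlap of the cultures), *Fcgr1* (-0.20) and *Mertk* (-0.15) had negative log2 fold changes. The list's median was -0.02. The list summed to 23790 to 24090 CPM in vehicle and to 28190 to 30180 CPM in bilirubin libraries. Most of that sum was *Lyz2*, at 18800 to 19350 and 23370 to 25320 CPM. Of 9 neutrophil markers *Ly6g* had 0 counts in 7 of the 8 libraries, while *S100a8* rose by 1.07 on the log2 scale (adjusted p = 3.34e-04), and the list summed to 11.1 to 13.7 CPM in vehicle and to 19.9 to 32.4 CPM in bilirubin libraries. Most of that sum was *S100a8*, at 10.6 to 13.1 and 17.5 to 30.9 CPM, and only 2 of the 9 had enough counts to be tested. Mouse 1 had the most counts of *Ltf* (30 with vehicle and 25 with bilirubin), *Ngp* (19 and 28) and *S100a9* (10 and 20). Cultures of the other mice had at most 8, 19 and 8. *Mpo* (18 counts) and *Elane* (7 counts) were highest in cultures of mouse 3. The summed dendritic cell markers ran from 39.3 to 43.7 CPM and from 39.7 to 65.7 CPM, nearly all of it *Bst2*. The monocyte (2.75 to 3.62 and 1.97 to 4.89 CPM), stromal (0.484 to 3.00 and 0.259 to 3.12 CPM), B cell, T and NK cell, and mast cell lists were low, the last 3 at no more than 1.27 CPM in any library. Their part in the results was not tested.

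Of the 10 receptors 4 were called, against 7.53% of all tested genes. *Tlr2* and *Cd14* rose, against 4.49% of tested genes called higher, and *Tlr7* and *Tlr13* fell, against 3.04% called lower. The 2 that rose are surface genes and the 2 that fell are endosomal genes. The CPM of the vehicle and bilirubin cultures did not overlap for *Tlr2* and *Tlr13*, as was the case for 10.6% of all tested genes. The median log2 fold change was 0.12 for the surface genes and -0.20 for the endosomal genes, beside 0.0 for all tested genes. These medians cover the 10 genes alone. *Tlr5*, a further surface receptor that was tested, had a log2 fold change of -0.33 and was not called.

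**Figure D1:**
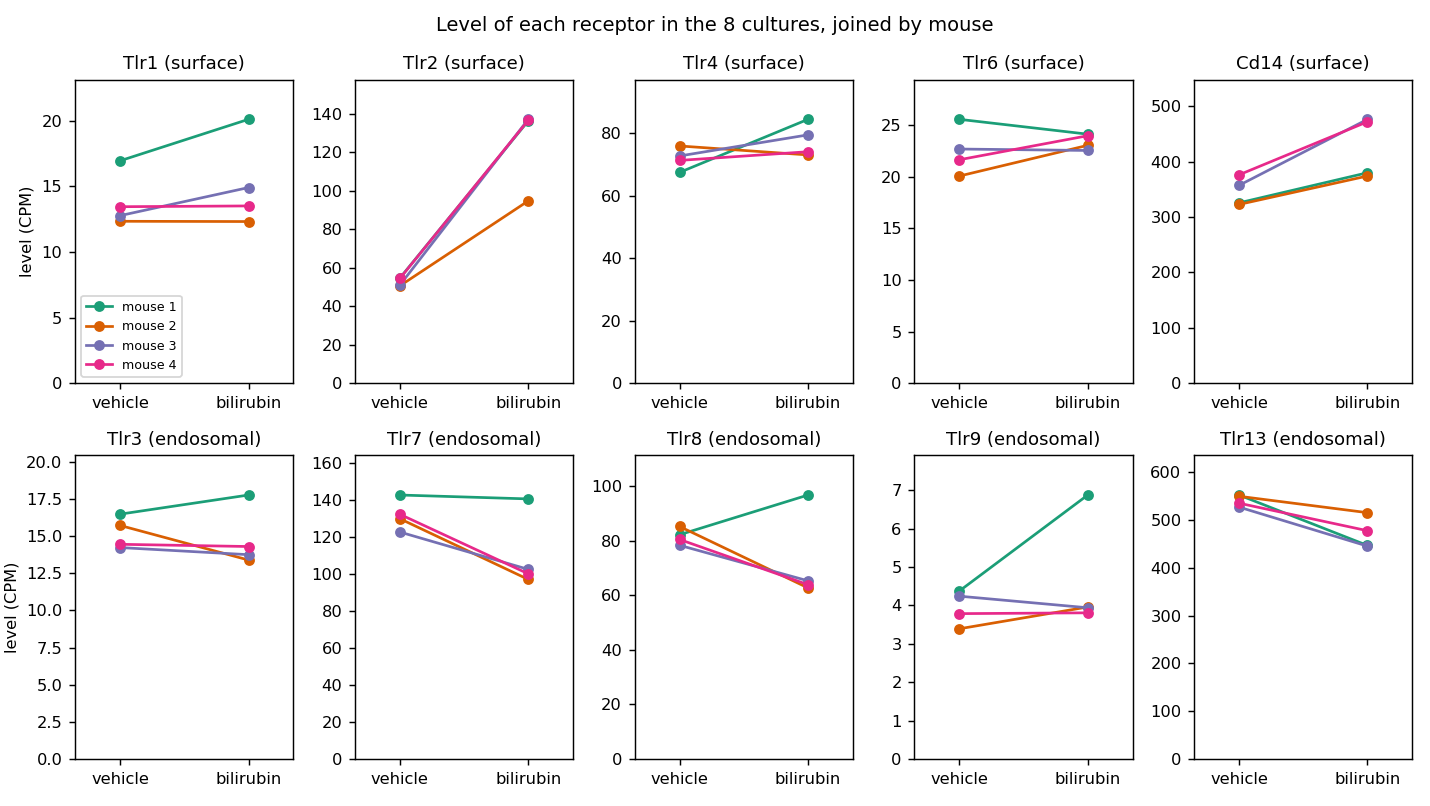
Level of each of the 10 genes in CPM (vertical axes, each from 0) in the vehicle and bilirubin culture of each mouse, with a line joining the cultures of a mouse and the surface genes in the upper row. *Tlr2* lies between 50.6 and 54.6 CPM in the vehicle cultures and between 94.8 and 137 CPM in the bilirubin cultures, and mouse 1 runs above the other mice in *Tlr7*, *Tlr8* and *Tlr9* with bilirubin.

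*Tlr2* encodes the receptor for bacterial lipopeptides, which pairs with TLR1 or TLR6 (ENSMUSG00000027995, protein-coding, GRCm39 chromosome 3, 83743576 to 83749074, minus strand). In mice 1, 2, 3 and 4 its level was 54.6, 50.6, 51.0 and 54.4 CPM with vehicle and 136, 94.8, 137 and 137 CPM with bilirubin, and values below follow the same order of mice. Every bilirubin culture was above every vehicle culture, and the bilirubin culture of mouse 2 was the lowest of its group. *Tlr2* rose, with means of 52.7 ± 2.17 and 126 ± 21.0 CPM (SD, n = 4 each) and a log2 fold change of 1.25 (SE 0.08, 95% interval 1.07 to 1.43, adjusted p = 7.58e-05) or 2.38-fold. Within the mice it was 1.32, 0.91, 1.43 and 1.33 on the log2 scale. Among the 13722 tested genes this was the 132nd highest log2 fold change and the 29th smallest p. *Tlr2* has 1 annotated transcript, ENSMUST00000029623, which took all counts, so a choice between transcripts could not be seen here. *Tlr2* was called in all 13 alternative settings, with adjusted p-values from 5.88e-52 to 0.00261. In bulk RNA more transcript per cell and more cells that carry it cannot be told apart.

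The window from 250 bases before to 50 bases after the start is printed for *Tlr2*, the receptor that rose most, and for *Tlr13*, which fell, since they moved in opposite directions and RefSeq promoter windows (GRCm38.p6) were found for both. Such windows were found for 7 of the 10 genes, with 2 starts each for *Tlr1* and *Tlr6*, and not for *Tlr4*, *Tlr7* and *Cd14*. Capitals mark the letters GGGNNNNNCC on either strand, a loose form of the site bound by NFκB, overlapping matches merged. The *Tlr2* window is chr3:83841559-83841858 on the minus strand and the *Tlr13* window chrX:106143025-106143324 on the plus strand.
Tlr2 promoter: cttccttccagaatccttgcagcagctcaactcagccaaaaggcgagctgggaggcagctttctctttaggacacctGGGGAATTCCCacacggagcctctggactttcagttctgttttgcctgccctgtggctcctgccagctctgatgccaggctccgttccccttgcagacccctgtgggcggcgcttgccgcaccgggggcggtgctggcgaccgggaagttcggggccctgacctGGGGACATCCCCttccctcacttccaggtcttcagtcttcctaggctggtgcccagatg
Tlr13 promoter: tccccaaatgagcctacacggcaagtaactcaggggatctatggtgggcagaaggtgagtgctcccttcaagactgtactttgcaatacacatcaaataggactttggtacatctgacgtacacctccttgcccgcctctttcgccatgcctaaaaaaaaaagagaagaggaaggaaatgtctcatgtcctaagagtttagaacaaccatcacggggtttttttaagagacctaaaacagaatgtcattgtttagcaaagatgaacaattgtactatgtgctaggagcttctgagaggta

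The *Tlr2* window held 7 overlapping matches in 2 places, beginning at positions -173 and -9 with the start base as 0, and the *Tlr13* window held none. The same letters lay in the *Tlr3* window (at -211, -23 and -9) and in 1 of the 2 *Tlr6* windows (at -99), genes that were not called. The windows of *Tlr1*, *Tlr8* and *Tlr9* held none. Such letters are common, being in 50.8% of the 32851 windows of the same length. The stricter NFκB consensus, a subset of the same letters, was in 5.8% of all windows and matched *Tlr2* at -172 on both strands. It also matched *Tlr3* at -211, a gene that was not called, and none of the windows of *Tlr1*, *Tlr6*, *Tlr8*, *Tlr9* and *Tlr13*. GAGGAA, the core bound by the myeloid factor PU.1, was in 28.3% of all windows on either strand. It lay in those of *Tlr13* (at -83), *Tlr8* (at -77), *Tlr9* and 1 of the 2 starts of *Tlr1*, and not in that of *Tlr2*. The GC box GGGCGG, present in 35.7% of all windows, lay in the *Tlr2* window at -69 and -48 and in the *Tlr3* window at +37. These matches describe the letters of the windows, and binding of a factor was not measured.

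The partners of TLR2 did not rise with it to a called degree. *Tlr1* (ENSMUSG00000044827, chromosome 5, 65082022 to 65090941, minus strand), whose product pairs with TLR2 on triacylated lipopeptides, was at 17.0, 12.3, 12.8 and 13.5 CPM with vehicle and at 20.1, 12.3, 14.9 and 13.5 CPM with bilirubin. *Tlr6* (ENSMUSG00000051498, chromosome 5, 65108704 to 65203497, minus strand), which serves diacylated lipopeptides, was at 25.6, 20.1, 22.7 and 21.7 CPM and at 24.1, 23.1, 22.6 and 24.0 CPM. The groups overlapped for both genes, with mouse 1 highest for each in both groups. Their log2 fold changes were 0.12 for *Tlr1* (95% interval -0.04 to 0.28, adjusted p = 0.388) and 0.06 for *Tlr6* (95% interval -0.08 to 0.21, adjusted p = 0.653), and neither was called in any of the 13 alternatives. Both intervals lie below that of *Tlr2*. The ratio of *Tlr2* to *Tlr1* on the TPM scale went from 3.35 ± 0.369 (SD, n = 4) with vehicle to 7.22 ± 1.82 with bilirubin, and that of *Tlr2* to *Tlr6* from 1.47 ± 0.310 to 3.30 ± 0.578, each higher in all 4 mice.

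*Tlr1* and *Tlr6* are neighbors, 17762 bases apart, and share coding sequence, so that a read from the shared stretch fits both. Their estimated counts were fractional, but the sum of both was a whole number, within 0.01, in 8 of 8 libraries, from 1224 to 2022 counts. Of the 2685 windows of 100 bases in the *Tlr1* transcript ENSMUST00000059349, 259 (9.6%) also occur in the *Tlr6* transcript ENSMUST00000062315. The longest identical run, of 229 bases, is shown because reads within it can be assigned to either gene only by estimation. It lies inside a coding exon at chr5:65082880-65083108 of GRCm39, minus strand.
Tlr1 and Tlr6 shared run: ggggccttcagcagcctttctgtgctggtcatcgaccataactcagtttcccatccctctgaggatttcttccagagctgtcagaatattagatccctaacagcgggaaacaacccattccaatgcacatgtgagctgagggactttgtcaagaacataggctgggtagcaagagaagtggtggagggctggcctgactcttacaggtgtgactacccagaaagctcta

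With the counts of both genes summed, the log2 fold change was 0.09 (SE 0.04, 95% interval -0.01 to 0.18, adjusted p = 0.273), and the pair was not called either. The gene model of *Tlr6* also overlaps *Fam114a1* on the opposite strand, with 0 bases shared between exons. The X-linked neighbors *Tlr7* and *Tlr8*, 39432 bases apart, shared no window of 100 bases and no identical run longer than 13 bases.

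*Tlr4*, the receptor for lipopolysaccharide (ENSMUSG00000039005, chromosome 4, 66745783 to 66849936, plus strand), was at 67.4, 75.9, 72.7 and 71.3 CPM with vehicle and at 84.4, 73.0, 79.4 and 74.0 CPM with bilirubin. The groups overlapped, and the culture of mouse 2 was lower with bilirubin where those of the other mice were higher. The log2 fold change of 0.11 (SE 0.06, 95% interval -0.02 to 0.25, adjusted p = 0.331) was not called in any setting. *Ly96* encodes MD-2, the subunit that TLR4 needs to bind lipopolysaccharide, and its log2 fold change was 0.07 (adjusted p = 0.703). The ratio of *Ly96* to *Tlr4* was 1.46 ± 0.168 (SD, n = 4) with vehicle and 1.43 ± 0.126 with bilirubin on the TPM scale, higher in 2 of 4 mice.

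*Cd14* encodes the lipid-anchored protein that hands lipopolysaccharide to TLR4 and MD-2 (ENSMUSG00000051439, chromosome 18, 36858120 to 36859851, minus strand). On the TPM scale it was the most abundant of the 10 genes in both groups, while *Tlr13* had the higher mean CPM in both. In CPM it was at 326, 323, 357 and 376 CPM with vehicle and at 380, 374, 476 and 472 CPM with bilirubin. All 4 mice had more with bilirubin, but the bilirubin culture of mouse 2 lay just under the vehicle culture of mouse 4, so the groups overlapped. *Cd14* rose, with means of 345 ± 25.8 and 426 ± 56.2 CPM (SD, n = 4 each) and a log2 fold change of 0.29 (SE 0.04, 95% interval 0.20 to 0.39, adjusted p = 0.00372). That is 1.23-fold, beside 2.38-fold for *Tlr2*, and the intervals of both do not overlap. On the TPM scale the ratio of *Cd14* to *Tlr2* went from 13.9 ± 1.02 to 7.13 ± 0.973, lower in all 4 mice. The ratio of *Cd14* to *Tlr4* was 13.4 ± 1.37 and 15.3 ± 2.33, higher in 3 of 4 mice. *Cd14* was called in 12 of 13 alternatives, and without the pairing by mouse its adjusted p was 0.0775.

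**Figure D2:**
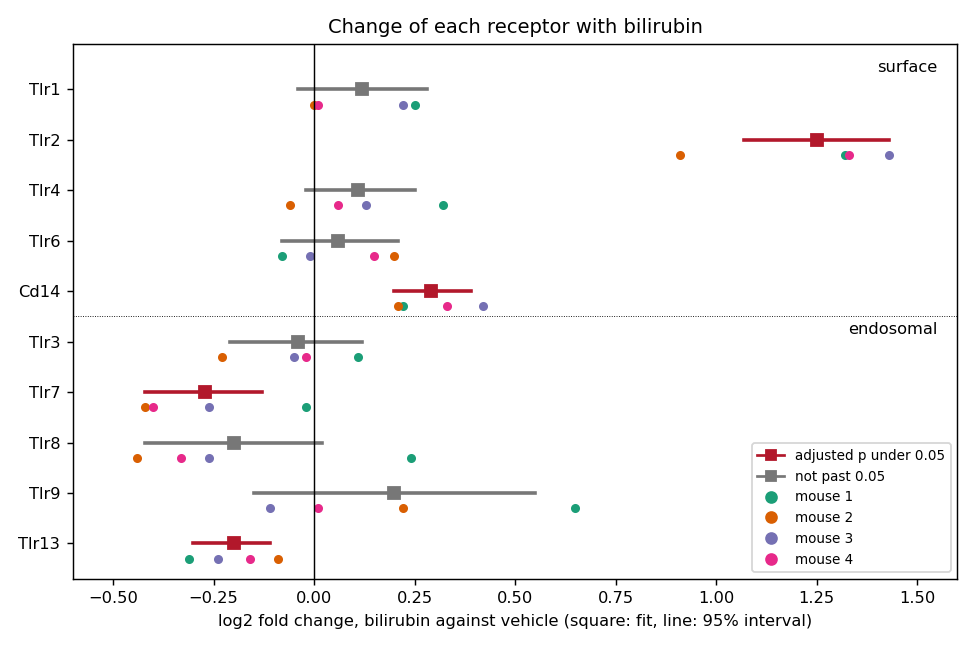
Log2 fold change of each gene with bilirubin (square) and its 95% interval (line) from the fit over all genes, with the difference within each mouse as a dot beneath, red where the adjusted p was under 0.05. *Tlr2* stands alone at 1.25, *Cd14* is at 0.29, and *Tlr7* and *Tlr13* are at -0.27 and -0.20.

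Among the endosomal receptors, *Tlr13* and *Tlr7* fell. *Tlr13* encodes a receptor for bacterial ribosomal RNA that mice have and humans lack (ENSMUSG00000033777, chromosome X, 105186810 to 105204533, plus strand). Its level was 553, 550, 528 and 536 CPM with vehicle and 447, 516, 446 and 478 CPM with bilirubin. All bilirubin cultures were below all vehicle cultures, with mouse 2 the closest. The means were 542 ± 12.0 with vehicle and 472 ± 33.0 CPM with bilirubin (SD, n = 4 each), and the log2 fold change was -0.20 (SE 0.04, 95% interval -0.30 to -0.11, adjusted p = 0.021) or 0.87-fold. Without mouse 3 the adjusted p was 0.155 and without mouse 4 it was 0.0989, and the direction was the same in all 13 alternatives.

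*Tlr7*, a receptor for single-stranded RNA (ENSMUSG00000044583, chromosome X, 166086758 to 166113605, minus strand), was at 143, 130, 123 and 132 CPM with vehicle and at 141, 97.1, 103 and 100 CPM with bilirubin. In mouse 1 the cultures differed by -0.02 on the log2 scale, and in mice 2, 3 and 4 by -0.42, -0.26 and -0.40, so that the groups overlapped through mouse 1 alone. The log2 fold change was -0.27 (SE 0.06, 95% interval -0.42 to -0.13, adjusted p = 0.0387). This call was the least stable of the 4, holding in 8 of 13 alternatives. The adjusted p was 0.224 without the pairing by mouse, 0.0522 with an offset for transcript length, and 0.171, 0.187 and 0.205 without mouse 2, 3 or 4. Without mouse 1 the log2 fold change was -0.36 (adjusted p = 1.25e-04).

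*Tlr8*, the neighbor of *Tlr7* and also a sensor of RNA breakdown products (ENSMUSG00000040522, chromosome X, 166024184 to 166047325, minus strand), was at 82.1, 85.2, 78.3 and 80.4 CPM with vehicle and at 96.7, 62.7, 65.2 and 63.8 CPM with bilirubin. The bilirubin cultures of mice 2, 3 and 4 lay below all vehicle cultures and that of mouse 1 above all of them. The log2 fold change of -0.20 (SE 0.10, 95% interval -0.42 to 0.02, adjusted p = 0.302) was not called. Without mouse 1 it was -0.35 and was called (adjusted p = 2.56e-04), and it was called as well with no filter on low counts (adjusted p = 0.00856). The differences within mice 1 to 4 were 0.24, -0.44, -0.26 and -0.33. The order of the mice was that of *Tlr7*, with mouse 1 highest and mouse 2 lowest in both.

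Salmon assigned most *Tlr8* counts to 2 transcripts with the same coding bases. ENSMUST00000112170 has 3 exons and 237 bases at its 5′ end that ENSMUST00000049023, with 2 exons, does not have. The shorter form was at 42.8, 40.1, 38.8 and 30.7 CPM with vehicle and at 27.1, 18.6, 23.1 and 14.4 CPM with bilirubin. Every bilirubin culture, mouse 1 included, was below every vehicle culture. The longer form was at 36.4, 42.2, 36.6 and 47.2 CPM with vehicle and at 67.0, 42.8, 40.0 and 47.9 CPM with bilirubin, and here only mouse 1 differed by more than 4 CPM. The longer form thereby went from 49.9% ± 6.3 (SD, n = 4) to 68.5% ± 5.7 (SD, n = 4) of *Tlr8* counts, in ranges of 44.3% to 58.7% and 61.3% to 75.1% that did not overlap. This pair of transcripts was singled out after its values were seen, the split between forms that differ by their 5′ end is an estimate, and no test was made. For comparison, one transcript held at least 99.9% of the counts of *Tlr13* and 80.8% to 88.5% of those of *Tlr7* in each library.

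**Figure D3:**
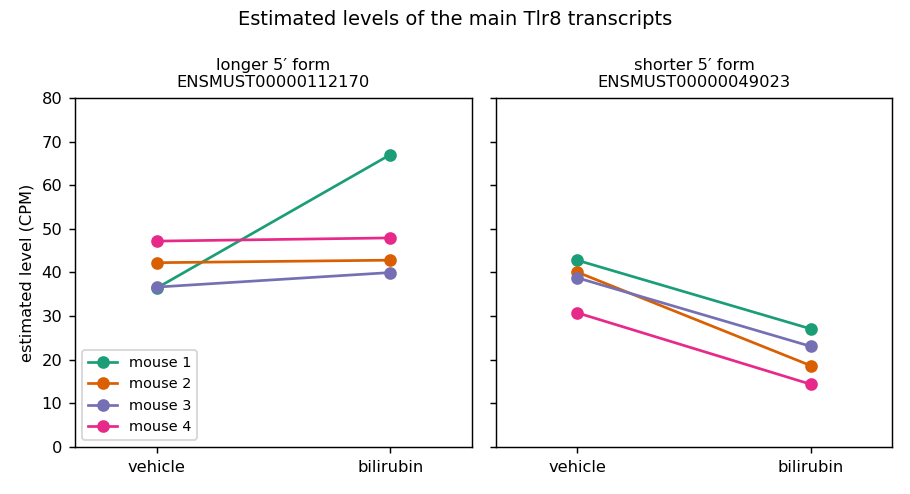
Estimated level in CPM of the main *Tlr8* transcripts in the vehicle and bilirubin culture of each mouse, the form with the longer 5′ end on the left. The shorter form is lower with bilirubin in all 4 mice, at 14.4 to 27.1 CPM against 30.7 to 42.8 CPM, while the longer form is higher in mouse 1 and nearly level in the other mice.

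The other endosomal receptors were not called in any setting. *Tlr3*, the receptor for double-stranded RNA (ENSMUSG00000031639, chromosome 8, 45848702 to 45864117, minus strand), was at 16.5, 15.7, 14.2 and 14.5 CPM with vehicle and at 17.8, 13.4, 13.8 and 14.3 CPM with bilirubin. *Tlr9*, the receptor for unmethylated CpG DNA (ENSMUSG00000045322, chromosome 9, 106099797 to 106104082, plus strand), was at 4.38, 3.39, 4.24 and 3.79 CPM with vehicle and at 6.88, 3.96, 3.94 and 3.81 CPM with bilirubin, from 128 to 239 counts a library. The groups overlapped for both, and mouse 1 had the highest level with bilirubin in each. *Tlr3* had a log2 fold change of -0.04 (95% interval -0.21 to 0.12, adjusted p = 0.792). For *Tlr9* it was 0.20 with the widest interval of the 10 genes (-0.15 to 0.55, adjusted p = 0.532), and the difference within mouse 1 alone was 0.65. The interval of *Tlr3* runs down to -0.21 and so does not exclude a fall as large as that of *Tlr13*. Of the remaining mouse receptors, *Tlr5*, a surface receptor for flagellin, had 61 to 112 counts a library. Its log2 fold change was -0.33 (adjusted p = 0.353), lower with bilirubin in all 4 mice and opposite in sign to the surface median. *Tlr11* and *Tlr12* had at most 2 counts in any library and were not tested.

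The endosomal genes that fell lie on chromosome X, as does *Tlr8*. The median log2 fold change of the 426 tested genes of chromosome X was 0.0. Within the mice, the median difference of the endosomal genes was 0.11 in mouse 1 and -0.23, -0.24 and -0.16 in mice 2, 3 and 4, whereas that of the surface genes was 0.25, 0.20, 0.22 and 0.15.

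With the length of the transcripts taken into account, the order of the 10 genes changed in 1 main respect. With vehicle it was *Cd14* (400 ± 28.0 TPM, SD, n = 4), *Tlr13* (218 ± 5.89), *Tlr7* (64.3 ± 5.39), *Tlr8* (53.4 ± 2.25), *Tlr4* (29.9 ± 0.978), *Tlr2* (28.8 ± 1.40), *Tlr6* (20.3 ± 5.18), *Tlr1* (8.70 ± 1.30), *Tlr3* (8.29 ± 2.40) and *Tlr9* (1.86 ± 0.221). Only the neighbors *Tlr4* and *Tlr2*, and *Tlr1* and *Tlr3*, overlapped in their ranges. Part of these TPM came from minor transcripts. For *Tlr6*, ENSMUST00000201307 gave 9.43 TPM with vehicle from 7.3% of the counts. For *Tlr8*, ENSMUST00000148370 and ENSMUST00000133722 gave 6.13 and 6.16 TPM with vehicle from 1.6% and 1.5% of the counts. With bilirubin *Tlr2* moved up to the third place, at 67.1 ± 12.2 TPM, and overlapped *Tlr7* at 51.1 ± 10.3 TPM, which overlapped *Tlr8* at 43.1 ± 12.2 TPM, which overlapped *Tlr4* at 31.1 ± 3.61 TPM. *Cd14* and *Tlr13* kept their places, at 471 ± 57.2 and 184 ± 9.17 TPM, and *Tlr6* (20.5 ± 3.43), *Tlr1* (9.66 ± 2.84), *Tlr3* (7.85 ± 1.16) and *Tlr9* (2.14 ± 0.783) followed as before.

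The 9 Toll-like receptors together came to 434 ± 19.9 TPM (SD, n = 4) with vehicle and 416 ± 39.6 TPM with bilirubin, in ranges that overlapped. The surface receptors made up 20.2% ± 0.932 (SD, n = 4) of this sum with vehicle, 21.2% at the highest, and 30.8% ± 2.73 with bilirubin, from 26.7% to 32.6%. Thus the share of the surface receptors was higher with bilirubin in every mouse, while the summed endosomal receptors went from 346 ± 13.6 to 288 ± 24.4 TPM. *Tlr2* alone went from 6.63% ± 0.189 to 16.1% ± 2.48 of the sum. *Tlr13* went from 50.3% ± 1.25 to 44.5% ± 4.93, and its range with bilirubin, 38.6% to 50.4%, overlapped that with vehicle. The ratio of *Tlr2* to *Tlr13* was 0.132 ± 0.00555 with vehicle and 0.368 ± 0.0795 with bilirubin, and that of *Tlr2* to *Tlr7* was 0.449 ± 0.0158 and 1.33 ± 0.263. TPM values depend on the transcript to which reads were assigned, and the shares describe RNA and not protein.

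**Figure D4:**
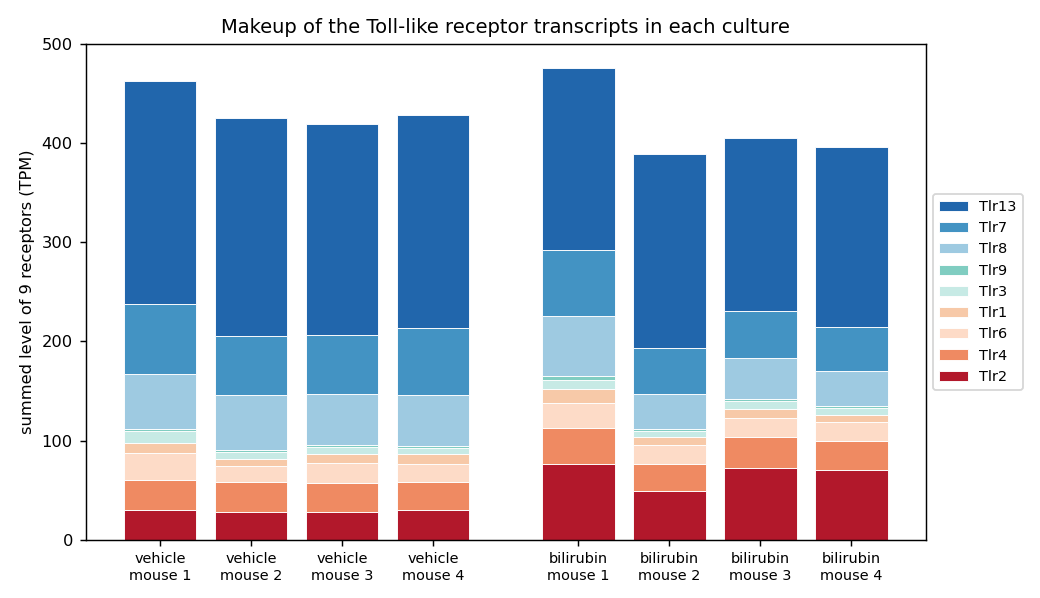
Summed level in TPM of the 9 Toll-like receptors in each culture (bars from 0), divided by receptor, with the surface receptors in red tones at the base and the endosomal receptors in blue tones above. The surface receptors take at most 21.2% of the vehicle bars and 26.7% to 32.6% of the bilirubin bars, and *Tlr2* accounts for most of the difference.

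The genes whose log2 CPM over the 8 libraries ran most like that of a called receptor were sought among 10906 genes, by the root mean square of the difference after each was centered on its mean. For *Tlr2* they were *Pde4b*, a cAMP phosphodiesterase (0.059), *Ralgds*, an exchange factor for Ral proteins (0.100), and *Il2rg*, the common gamma chain of cytokine receptors (0.112). Those genes had log2 fold changes of 1.27, 1.30 and 1.39. *Cd14* was closest to *Sec61b*, a subunit of the translocon (0.048), *Mboat1*, an acyltransferase (0.052), and *Tpm4*, a tropomyosin (0.053). *Tlr7* was closest to *Zcchc24* (0.040), *Blnk*, a signaling linker (0.041), and *Kank2* (0.045), while *Tlr13* was closest to *Atxn10* (0.025), *Gid4* (0.028) and *Galns*, a lysosomal sulfatase (0.032). The measure is a description of these 8 libraries.

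Most genes that the receptors work with were not called, while 5 of 12 inhibitors of the pathway rose. Of 74 genes in 9 lists of partners, signaling proteins and other sensors, 70 were tested, 9 were called higher and 2 lower, and their median log2 fold change was 0.03. Over all tested genes 4.49% were called higher and 3.04% lower, with a median of 0.0. None was called among the 4 tested co-receptors, the 11 genes of chaperones and trafficking, the 6 tested adaptors, the 5 interferon regulatory factors and *Tlr5*. *Unc93b1*, the chaperone of the endosomal receptors, had a log2 fold change of 0.13 (adjusted p = 0.254), and its ratio to *Tlr13* on the TPM scale went from 1.39 ± 0.0507 (SD, n = 4) to 1.83 ± 0.276, higher in all 4 mice. *Myd88*, the adaptor shared by all the receptors but TLR3, had 0.14 (adjusted p = 0.12). Its cultures did not overlap, at 53.9 to 55.6 CPM with vehicle and 56.7 to 65.9 CPM with bilirubin. *Ticam1*, which encodes TRIF, had -0.06 (adjusted p = 0.679). *Cd180*, a relative of *Tlr4*, had means of 331 ± 1.70 and 293 ± 25.2 CPM without overlap of the cultures, and was not called (log2 fold change -0.18, adjusted p = 0.0636); it was named after its values were seen.

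In the list of 12 negative regulators 5 were called higher and none lower, against 4.49% and 3.04% of all tested genes, and the median log2 fold change was 0.21 beside 0.0 for all tested genes. *Nfkbia*, which encodes the NFκB inhibitor IκBα and is itself a target of NFκB, rose by 0.77 on the log2 scale (adjusted p = 3.82e-04), with means of 89.3 ± 8.90 and 153 ± 24.8 CPM (SD, n = 4 each). *Zc3h12a*, the ribonuclease Regnase-1 that degrades cytokine mRNA, rose by 0.66 (adjusted p = 0.00475). *Tnip1*, a partner of A20, rose by 0.52 (adjusted p = 9.73e-04), and *Irak3*, the kinase-like inhibitor IRAK-M, by 0.51 (adjusted p = 0.00212). The fifth, *Tnfaip3*, which encodes A20, rose by 0.38 (adjusted p = 0.0487) and was named after its values were seen. It was called in 8 of 13 alternatives. The lowest value of the list was that of *Sigirr*, also named after its values were seen. Its log2 fold change was -0.57 (adjusted p = 0.148, not called), lower with bilirubin in all 4 mice. Among the 16 kinases and ubiquitin ligases *Ikbke* (IKKε) rose by 0.82 (adjusted p = 7.15e-04) and *Traf3*, a ligase of the interferon branch, by 0.41 (adjusted p = 0.00265). *Traf6*, the ligase downstream of MyD88, fell by 0.29 (adjusted p = 0.00478), and the median of that list was -0.04. Of 5 endosomal proteases, which cut the endosomal receptors into their active form, *Ctsk* rose by 1.41 (adjusted p = 5.51e-05), with means of 25.9 ± 3.27 and 69.7 ± 15.5 CPM, and the list's median was -0.04. Of 10 cytosolic sensors *Nod2*, a sensor of peptidoglycan fragments, rose by 0.44 (adjusted p = 0.0279) and *Sting1*, the adaptor of the DNA sensor cGAS, fell by 0.37 (adjusted p = 0.0142), with a median of 0.15. The call of *Nod2* held in 8 and that of *Sting1* in 9 of the 13 alternatives.

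**Figure D5:**
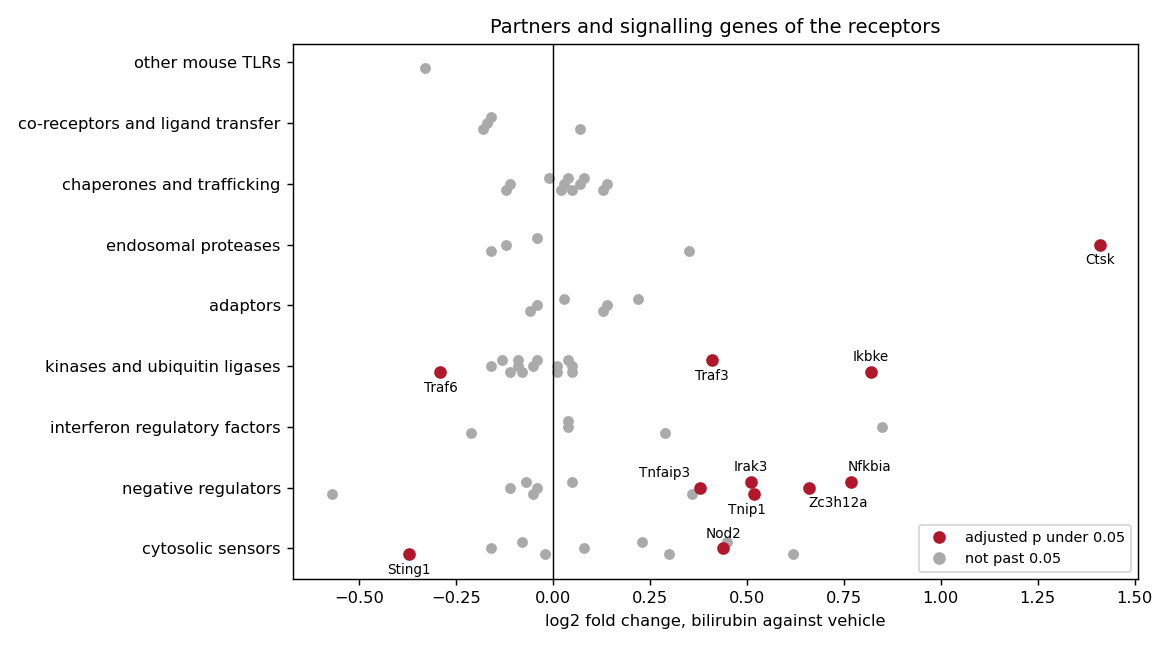
Log2 fold change with bilirubin of the 70 tested genes in 9 lists of receptor partners, signaling proteins and other sensors, one dot per gene, red and named where the adjusted p was under 0.05. Called negative regulators lie to the right at 0.38 to 0.77, and the chaperones, co-receptors and adaptors lie between -0.18 and 0.22 with none called.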

How the data were processed

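RNA from 8 BMDM cultures, a vehicle and a bilirubin culture of each of 4 mice, was sequenced after poly(A) selection. Per the submitters' notes, reads were trimmed with Trim Galore 0.6.7 and Cutadapt 3.4, aligned with STAR 2.7.9a to GRCm39 and quantified with Salmon 1.10.1. The authors deposited Salmon's estimated counts per gene (expected counts, not scaled for depth or length, and not all whole). They also deposited estimated counts and TPM per transcript, which were summed per gene here. Whether counting used the strand is not given in the sources used here. Salmon divides reads shared by similar genes or transcripts, which affects *Tlr1*, *Tlr6* and all transcript shares.

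After rounding, the counts were compared with edgeR 4.0.16 under R 4.3.3, with TMM scaling, filterByExpr (at least 10 counts, 15 in total), mouse and treatment in the model, the quasi-likelihood test, and Benjamini-Hochberg adjustment over 13722 genes. Cultures were paired by the number in their labels. That number was taken as the mouse, since the study used 4 mice and a mouse identifier as covariate. The correlations of a mouse's cultures, as deviations from the group means, were 0.108, 0.134, 0.108 and -0.005. Between cultures of different mice the mean was -0.028 and the highest 0.075, so these values do not set the pair of mouse 4 apart. Log2 CPM used a prior count of 2. Libraries held 34142781 to 47071714 counts, and *Tlr9* had the fewest counts of the members. The code was checked on simulated counts.

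In 13 alternatives the mouse was dropped from the model, the test was that of DESeq2 1.42.0 or limma 3.58.1 (voom or trend), or there were other scalings (DESeq2's size factors, library size alone), other filters (none, or a CPM above 1 in 4 libraries), an offset for transcript length, or 3 of the 4 mice. The members, the lists and the analyses were chosen with earlier results of these data known. Named are all 10 members, the called genes of each list (at most the 4 with the smallest adjusted p), the obligate partners *Ly96*, *Unc93b1*, *Myd88* and *Ticam1*, and the 3 genes most like each called member. Positions are from GENCODE on GRCm39 and promoter windows from RefSeq on GRCm38.p6. Raw reads and the other experiments of the study were not analysed here.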

Additional observations from a re-analysis of the deposited data

Results flagged for a closer look

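In 4 of 30 sets of 4 values (each member's vehicle cultures, bilirubin cultures and within-mouse differences), 1 value lay far from the others. Chance gives this in about 5% of single sets. The 30 sets share cultures and are not independent, so the count of 4 cannot show an excess over that share. The bilirubin culture of mouse 2 had 94.8 CPM of *Tlr2*, against 136 to 137 CPM in the other bilirubin cultures. That of mouse 1 had 141 CPM of *Tlr7* (97.1 to 103 CPM in the others), 96.7 CPM of *Tlr8* (62.7 to 65.2 CPM) and 6.88 CPM of *Tlr9* (3.81 to 3.96 CPM). The same library had the lowest depth, 34142781 counts, and with mouse 1 left out *Tlr8* was called. These values were not separated into causes, and no cause was tested.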

How the results depend on the processing

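Of 130 comparisons of a member's log2 fold change with an alternative, 119 kept their direction and their side of the threshold. The calls of *Cd14* (in 1 setting), *Tlr7* (in 5) and *Tlr13* (in 2) were lost, that of *Tlr8* was gained in 2, and *Tlr3*, not called, changed sign without replicate 2 (0.015, within -0.10 to 0.015 over the mice left out). Of the 10 members 4 were called, 2 with no replicate block for the pairing by mouse (*Tlr2* and *Tlr13*), and 2 to 5 with a mouse left out, namely only *Tlr2* and *Cd14* without mouse 3 or mouse 4. Among all tested genes 1033 were called, 686 with no replicate block, 1692 with no filter, 579 with the transcript length offset and 377 to 1910 with a mouse left out. Of the pathway genes 11 were called, 26 with no filter and 7 to 21 with a mouse left out. Scaling by library size alone gave 527 genes higher and 556 lower (48.66% higher, against 59.63% with TMM), and 9 higher and 6 lower among the pathway genes, against 9 and 2; the members called were the same 4. The causes of these shifts were not tested, other than that fewer mice or another number of tested genes enter some of the fits. *Tlr9* had the fewest counts of the members, 128 to 239 a library, and whether depth or the spread between mice sets its wide interval was not tested.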

Other observations

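Several genes outside the rule for naming, chosen after their values were seen, also had their highest bilirubin level or difference in mouse 1. The log2 difference of *Irf7*, the interferon regulatory factor downstream of the endosomal receptors, was 2.01 in mouse 1 and 0.01, 0.77 and 0.57 in mice 2, 3 and 4. That of *Ly86*, the partner of *Cd180*, was 0.81 in mouse 1 and -0.68, -0.36 and -0.55 in the others, and that of *Zbp1*, a sensor of Z-form nucleic acids, was 2.18 in mouse 1 and -0.12, 0.49 and 0.01 in the others. The vehicle culture of mouse 1 was also the lowest of its group for *Irf7*, at 16.6 CPM against 23.7 to 27.7 CPM. For *Zbp1* it was at 1.64 CPM against 3.50 to 4.35 CPM, and for *Ly86* it lay within the range of the others. None of these genes was called (adjusted p = 0.0989, 0.741 and 0.366 in edgeR's quasi-likelihood test). *Cd14* showed no such pattern, its difference in mouse 1 being 0.22 against 0.21 to 0.42 in the other mice.

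Transcripts of other members were divided less evenly between the groups' cultures or overlapped. The *Tlr1* transcript ENSMUST00000197315 took 29.2% to 58.9% of *Tlr1* counts with vehicle and 55.6% to 77.4% with bilirubin, in ranges that overlapped. The main *Cd14* transcript, ENSMUST00000061829, took 90.9% to 92.0% and 92.3% to 93.3%, and these ranges did not overlap although they differ little.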
